A study of Homo sapiens with 6 samples.

Results

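Carbonic anhydrases are zinc enzymes that turn carbon dioxide and water into bicarbonate and a proton, and back again. Some isoenzymes work in the cytosol, some in mitochondria and some on the outer face of the cell membrane, and a few related proteins of the family have lost the catalytic activity. In intestinal epithelium they supply bicarbonate and protons to the exchangers that move salt, acid and base across the membrane. The family was described here as CA1, CA2, CA3, CA4, CA5B, CA8, CA9, CA11, CA12 and CA13, through every probe set that carries the name of 1 of these genes alone. These 10 genes stand among 19775 genes with a named probe set, and 9 of them had at least 1 probe set, 21 in all. For CA9 the annotation used here named no probe set, so CA9 has no value below. In addition, 1 probe set named for both CA5B and its pseudogene was not used. The family was picked on the signals of these same arrays, so the values of its members are a description and no p-value is given for them.

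The arrays, Affymetrix HG U133 Plus 2.0, held RNA of Caco2 cells, an established line from a human colon cancer. MTX-resistant Caco2 cells, able to grow in 10 µM methotrexate (MTX, an antifolate), were hybridised to 3 arrays, and parental, MTX-sensitive Caco2 cells to 3 arrays. Per the methods of the study, resistance was obtained by stepwise increases of MTX in the laboratory, and resistant cells were grown in a medium without glycine, hypoxanthine or thymidine and with dialysed serum, whereas parental cells were grown in Ham's F12 medium with fetal bovine serum. Resistance, medium and serum therefore differ together between the groups and cannot be told apart, and the RNA came from triplicate samples for which no separate cultures are stated.

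A signal is given below as a multiple of the median of its array. The median signal was 11.1, 10.6 and 11.5 on the resistant arrays and 11.1, 12.8 and 11.3 on the parental arrays, and the number of arrays limits the precision of each value. Signals of 2 different probe sets are not on one scale, so levels are compared only within a probe set. Where the signals of a list are summed, the sum follows its brightest probe sets and does not speak for each gene. A probe set was tested where its mean signal reached 1 times the array median, which 26563 did, among them 10 of the 21 of the family. A probe set was called higher or lower at a limma adjusted p below 0.05. Parental array 3 stood apart from the other parental arrays. Its log2 signals correlated with theirs at r = 0.949 and 0.946, against r = 0.966 between parental arrays 1 and 2, and it lay closer to the resistant arrays (r = 0.935 to 0.939) than they did (r = 0.914 to 0.929). Calls that changed without it are named or counted with the results. Leaving it out raised the calls over all tested probe sets from 1528 to 3586 higher and from 1135 to 3518 lower. The epithelial markers EPCAM, CDH1, KRT8, KRT18, KRT20 and VIL1 were bright on every array. CDX2, SI, ALPI and FABP1, markers of intestinal identity and of mature enterocytes, were not, with means under the array median in both groups.

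CA12 and CA2, a membrane-bound and a cytosolic isoenzyme, were higher in resistant cells, whereas CA13, another cytosolic isoenzyme, was lower. CA8, a non-catalytic relative, was higher by 1 of its 3 probe sets, which was dim in parental cells and entered the test only through the resistant arrays. Of the 10 tested probe sets of the family, 7 were called higher, against 5.75% of all tested probe sets called higher. They belong to CA12 (5 probe sets), CA2 and CA8. The fit called 2 lower, both of CA13, against 4.27% of all tested probe sets called lower, and 1, of CA11, was not called. In all 10 the resistant and the parental signals did not overlap, 8 with the resistant arrays above and 2 with them below, against 32.1% of all tested probe sets without overlap. The median change was 2.75 on the log2 scale over the 10 tested probe sets of the family and 0.0037 over all tested probe sets. Because the family was picked on this contrast, these counts are set beside the background and nothing is read from them. In RNA of whole cultures, a change in the number of cells that express a gene and a change in RNA per cell cannot be told apart.

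**Figure D1:**
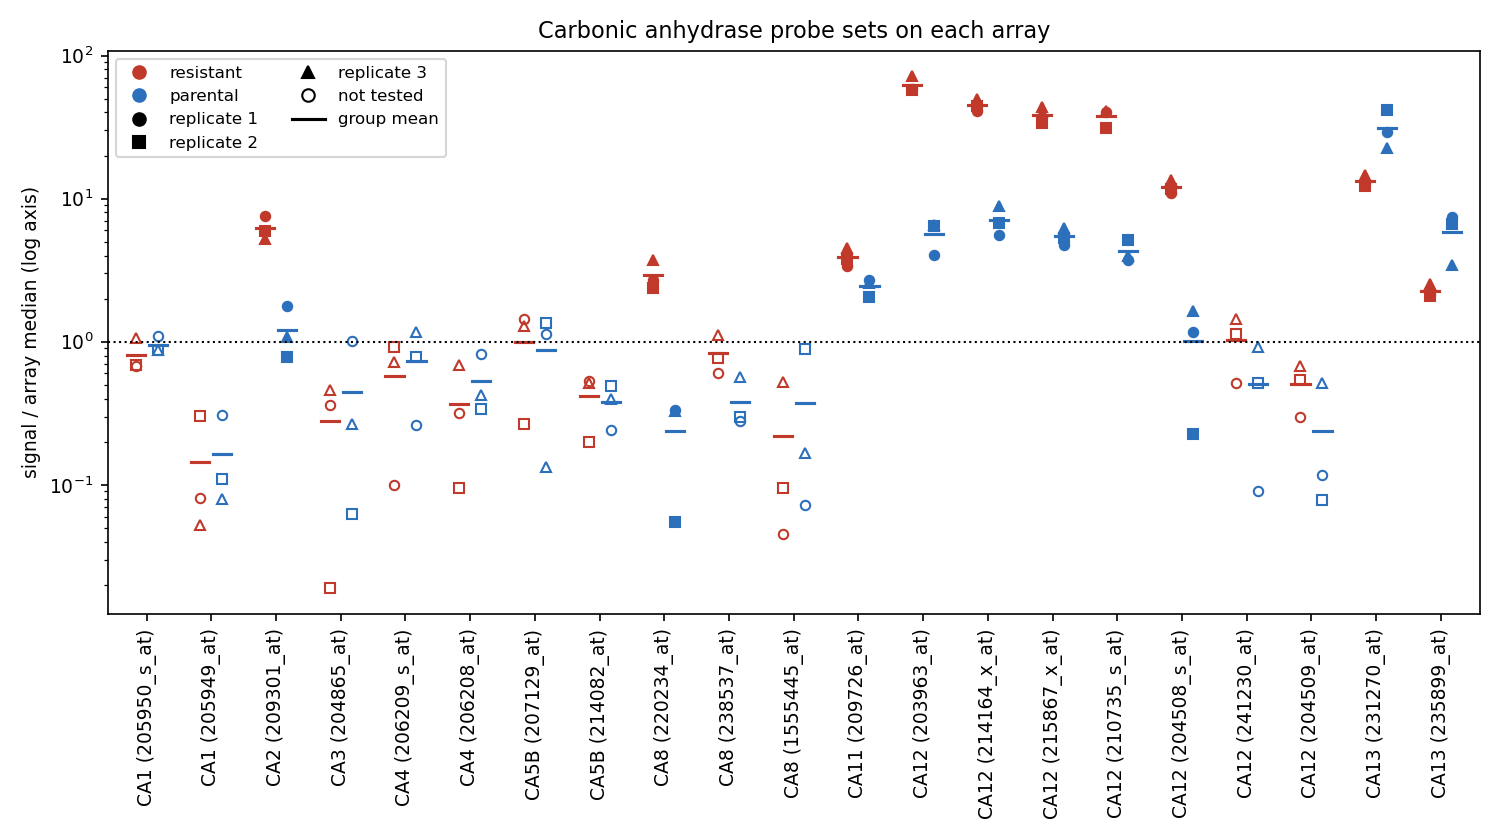
Signal of the 21 probe sets of the carbonic anhydrase family on each array, as a multiple of the array median on a log axis, with resistant arrays in red on the left and parental arrays in blue on the right of each pair, a bar at each group mean and open symbols for probe sets not tested. The CA12 probe set 203963_at lies between 57.3 and 71.5 on the resistant arrays and between 4.02 and 6.56 on the parental arrays, and the dotted line marks the array median.

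CA12 is a transmembrane isoenzyme with its catalytic domain outside the cell. It was read by 7 probe sets, of which 5 were tested. The probe set 203963_at gave 58, 57.3 and 71.5 times the array median on the resistant arrays and 4.02, 6.4 and 6.56 on the parental arrays. The lowest resistant array was thus far above the highest parental array, and the change was 3.49 ± 0.21 (log2, SE, n = 3 each), which is 11.2-fold. Only 0.26% of all tested probe sets had a larger change in either direction. The probe set 210735_s_at, of a type that can read several transcripts, gave 40.5, 31.3 and 40.9 on the resistant arrays and 3.75, 5.11 and 4 on the parental arrays. Its change was 3.13 ± 0.18, or 8.78-fold, with no overlap. Another pair, 215867_x_at and 214164_x_at, is of a type that shares probes with other transcripts, so part of their signal may come from elsewhere. The first gave 37.3, 33.9 and 43.8 on the resistant arrays and 4.77, 5.33 and 6.28 on the parental arrays, a change of 2.81 ± 0.17 (7.03-fold). The second gave 40.8, 44.2 and 50 on the resistant arrays and 5.55, 6.73 and 8.93 on the parental arrays, a change of 2.69 ± 0.19 (6.47-fold).

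The last of the tested CA12 probe sets, 204508_s_at, also of a type that can read several transcripts, gave 11, 11.7 and 13.5 times the array median on the resistant arrays and 1.17, 0.227 and 1.63 on the parental arrays. Its parental signals lay near or under the array median and differed widely among themselves, and the change was 3.99 ± 0.59 (15.9-fold). That fold rested on the dim parental arrays, since it was 8.71-fold without parental array 2, 23.3-fold without parental array 3 and 9.13-fold with an offset of 0.5 added to every scaled signal. The 5 tested probe sets of the gene thus spanned 2.69 to 3.99 on the log2 scale. All 5 were higher on every resistant array than on any parental array. The 2 that were not tested, 241230_at and 204509_at, were dim and overlapped between the groups. The first gave 0.514, 1.14 and 1.43 on the resistant arrays and 0.0901, 0.516 and 0.92 on the parental arrays, and the second 0.297, 0.538 and 0.678 on the resistant arrays and 0.117, 0.0781 and 0.513 on the parental arrays. Without parental array 3 the change of 203963_at was 3.61, or 12.2-fold.

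The promoter of CA12 is shown because CA12 had the most called probe sets of the family, and that of CA9, its transmembrane relative and a classical target of the hypoxia-inducible factors (HIF), is shown for comparison of their sequence only. Both are the 250 bases before the annotated start in RefSeq, assembly GRCh38.p14, written 5′ to 3′ on the strand of the gene. Capitals mark a match, on either strand, to ACGTG, a form of the core of the hypoxia response element.
CA12, chr15:63381847-63382096, minus strand: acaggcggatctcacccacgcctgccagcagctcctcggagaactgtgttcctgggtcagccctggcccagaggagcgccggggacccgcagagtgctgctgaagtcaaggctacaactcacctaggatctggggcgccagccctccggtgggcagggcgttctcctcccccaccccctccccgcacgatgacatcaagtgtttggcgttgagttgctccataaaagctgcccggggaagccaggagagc
CA9, chr9:35673678-35673927, plus strand: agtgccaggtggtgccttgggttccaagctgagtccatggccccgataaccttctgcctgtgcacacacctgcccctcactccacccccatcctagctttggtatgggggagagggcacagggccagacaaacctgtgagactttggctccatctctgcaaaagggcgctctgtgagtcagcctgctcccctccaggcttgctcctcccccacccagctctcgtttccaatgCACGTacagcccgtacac

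Both strands of each window were searched for the hypoxia response element core ACGTG, the GC box GGGCGG, the TATA box TATAAA and the palindromic oestrogen response element in its consensus form. The CA12 window held no match to these letters. Variant forms, such as GCGTG for the hypoxia response element core, were not searched. The CA9 window held 1 match to the hypoxia response element core, on the opposite strand, 18 bases before the start, and none of the others. Over 35116 promoter windows of the same length, the core was found in 18.5%, the GC box in 42.6%, the TATA box in 10.7% and the oestrogen response element in 0.0399%. A match describes letters in this window and is not evidence of binding, nor does the lack of one speak against a factor. The promoter table held windows for 3 of the 10 genes (CA5B, CA9 and CA12). The CA5B window also held no match to the 4 motifs as written here.

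CA2 is the fast cytosolic isoenzyme found in many epithelia and in red cells. Its only probe set, 209301_at, gave 7.52, 5.96 and 5.25 times the array median on the resistant arrays and 1.79, 0.781 and 1.07 on the parental arrays. All resistant signals lay above all parental ones, which were close to the array median. The change was 2.43 ± 0.31 (log2, SE, n = 3 each), or 5.4-fold. It was 4.01-fold with the offset of 0.5, and parental array 3 lay between parental arrays 1 and 2.

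CA13 is a cytosolic isoenzyme whose gene lies in a cluster with CA1, CA3 and CA2. It was lower in resistant cells by both of its probe sets. The probe set 231270_at gave 12.8, 12.2 and 14.6 times the array median on the resistant arrays and 29.3, 41.6 and 22.6 on the parental arrays. The change was -1.20 ± 0.21 on the log2 scale, or 2.3-fold lower, with no overlap. The probe set 235899_at gave 2.12, 2.08 and 2.54 on the resistant arrays and 7.43, 6.62 and 3.43 on the parental arrays. The change was -1.31 ± 0.29, or 2.47-fold lower. On both probe sets parental array 3 was the parental array closest to the resistant ones, and without it the values were 2.66-fold and 3.14-fold lower. The call of 235899_at was lost on leaving out each of the resistant arrays, parental array 1 or parental array 2.

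CA8 and CA11 are carbonic anhydrase-related proteins, which keep the fold of the family but lack its catalytic activity. CA8 is best known from the cerebellum, where it binds a receptor that releases calcium from stores. The CA8 probe set 220234_at gave 2.71, 2.38 and 3.72 times the array median on the resistant arrays and 0.333, 0.0547 and 0.327 on the parental arrays. The parental signals lay well under the array median, so this probe set passed the filter only through the resistant arrays and had to differ. Its change was 3.99 ± 0.77, or 15.9-fold, and the size depended on how low signals were treated, with 9.13-fold when all signals under percentile 25 of their array were set to it, 4.67-fold with an offset of 0.5 and 8.73-fold without parental array 2. Its call was lost on leaving out each of the resistant arrays. A further CA8 probe set, 238537_at, was not tested and gave 0.604, 0.764 and 1.12 on the resistant arrays and 0.279, 0.297 and 0.566 on the parental arrays, without overlap. The last one, 1555445_at, gave 0.045, 0.0943 and 0.522 on the resistant arrays and 0.0721, 0.883 and 0.168 on the parental arrays, which overlapped. The difference of its mean log2 signals was -0.76, so the 3 CA8 probe sets did not all share a direction.

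CA11 was read by 1 probe set, 209726_at, with 3.39, 3.79 and 4.53 times the array median on the resistant arrays and 2.68, 2.05 and 2.58 on the parental arrays. The groups did not overlap, but the change of 0.68 ± 0.22, or 1.6-fold, was not called. It was called higher only when parental array 3 was left out, with a change of 0.73 ± 0.24. Over all tested probe sets, 18.1% had a larger change than this one.

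**Figure D2:**
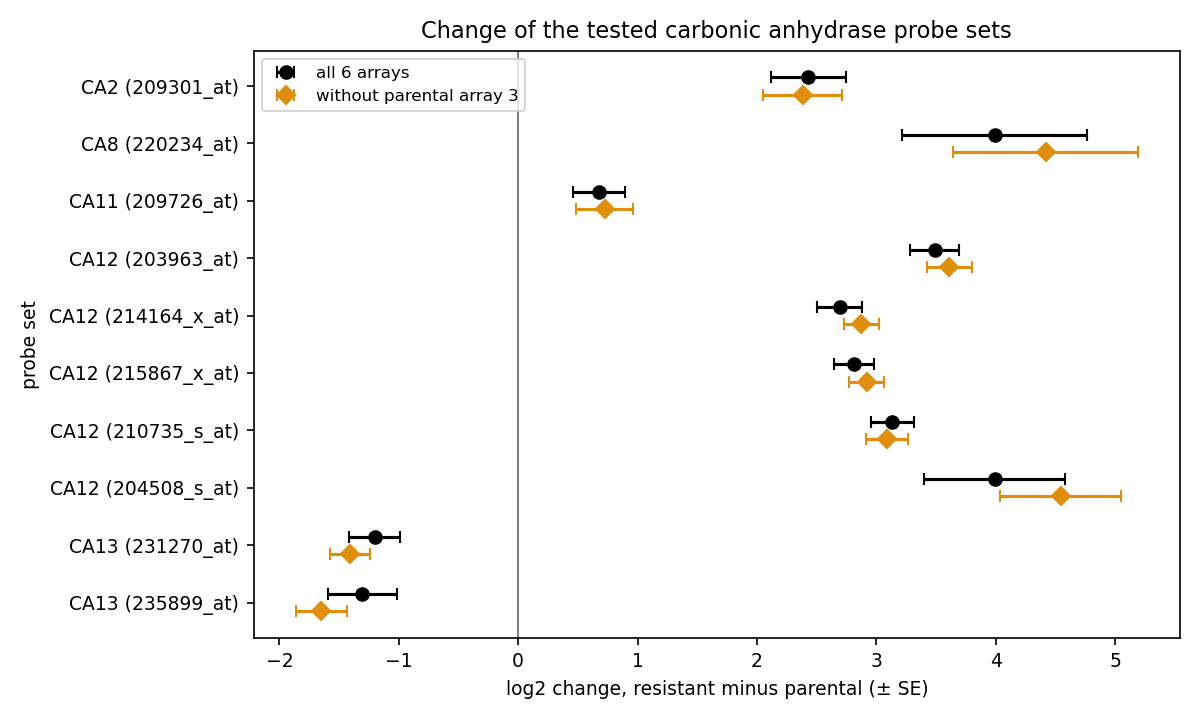
Change between resistant and parental cells of the 10 tested probe sets of the family, in log2 units with bars for the SE, over all 6 arrays in black and without parental array 3 in orange. Positive values are higher in resistant cells, and leaving out parental array 3 moved no probe set across 0.

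CA1, CA3, CA4 and CA5B were dim and none of their 7 probe sets was tested. CA1, a cytosolic isoenzyme abundant in red cells and in normal colon mucosa, gave 0.676, 0.689 and 1.06 on the resistant arrays and 1.1, 0.875 and 0.876 on the parental arrays with the probe set 205950_s_at. CA3, the isoenzyme of skeletal muscle and fat, gave 0.36, 0.0189 and 0.461 on the resistant arrays and 1.01, 0.0625 and 0.265 on the parental arrays. The mitochondrial CA5B gave 1.43, 0.264 and 1.28 on the resistant arrays and 1.14, 1.36 and 0.133 on the parental arrays with 207129_at. With a mean of 0.934 times the array median, that probe set was the closest of the family below the filter, followed by CA1 with 0.879. CA4, anchored to the membrane by a lipid, stayed between 0.0943 and 1.16 on all 6 arrays and over both of its probe sets. All 7 of these probe sets overlapped between resistant and parental arrays. The other carbonic anhydrases with a named probe set, CA5A, CA6, CA7, CA10 and CA14, were equally dim, and 0 of the 5 were tested. Their summed signal was 1.86 to 2.33 on the resistant arrays and 2.03 to 2.67 on the parental arrays.

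The profile of 220234_at (CA8) over the 6 arrays, centred on its own mean, was most like that of 204508_s_at (CA12), with a root mean square difference of 0.195 on the log2 scale. It was followed by IGFBP2, an insulin-like growth factor binding protein, with 0.296, and by MAOB, a monoamine oxidase, with 0.432. All of these were lowest on parental array 2, at 0.0547 (CA8), 0.227 (204508_s_at), 0.148 (IGFBP2) and 0.187 (MAOB) times the array median. The likeness thus rests in part on signals far under the array median, and the other tested CA12 probe sets were not lowest on that array. The profile of 203963_at (CA12) was most like those of CXCL10, a chemokine, with 0.229, of ZNF618 with 0.239 and of FMNL2, a formin, with 0.245. Probe sets that share probes with other transcripts were left out of this ranking. These likenesses are over 6 arrays only and largely measure the difference between the 2 groups.

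Bicarbonate made or used by carbonic anhydrases crosses membranes through anion exchangers, cotransporters and channels. CFTR, the chloride and bicarbonate channel of epithelia, gave 25.9, 22.9 and 22.3 times the array median on the resistant arrays and 4.56, 5.76 and 6.3 on the parental arrays. It was 4.31-fold higher in resistant cells (2.11 ± 0.17, limma adjusted p = 9.87e-05), and 3 of its 3 tested probe sets were called higher. SLC4A4, the sodium bicarbonate cotransporter, gave 5.74, 3.88 and 5.34 on the resistant arrays and 1, 1.26 and 0.973 on the parental arrays, 4.6-fold higher (2.20 ± 0.25, limma adjusted p = 0.000894). Only 1 of the 5 SLC4A4 probe sets was bright enough to be tested. Of the 7 tested genes of this list only these 2 were called, both higher, and the median change of the list was -0.05. SLC26A3, the chloride and bicarbonate exchanger of the colon surface, was at or under 0.811 on all arrays and was not tested.

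Protons leave the cell through sodium-proton exchangers and together with lactate. Of 7 tested genes of this list, 1 was called higher and 0 lower, with a median change of -0.21. The one called was SLC16A7, a monocarboxylate transporter, with 7.65, 7.42 and 5.61 on the resistant arrays and 2.91, 3.98 and 3.58 on the parental arrays (1.97-fold higher, 0.98 ± 0.20, limma adjusted p = 0.0164). That call was lost without resistant array 1 or 2 or parental array 1, and 2 of the 4 tested SLC16A7 probe sets were called. HVCN1, a proton channel, had the largest change of the list, -2.45 ± 0.87, but did not pass the test (limma adjusted p = 0.104). It gave 0.126, 0.16 and 1.19 times the array median on the resistant arrays and 1.42, 2.04 and 1.35 on the parental arrays, so it entered the test only through the parental arrays. Its change was -3.47 without resistant array 3, where it was called lower, and -1.23 with the offset of 0.5. Carboxylases use bicarbonate as a substrate, and none of the 8 tested ones was called by limma (0 higher and 2 lower at an unadjusted p under 0.05, median change -0.07). The largest changes were those of PCCA, -0.48 ± 0.20 (limma adjusted p = 0.155), and ACACA, which makes malonyl-CoA for fatty acid synthesis, -0.44 ± 0.13 (limma adjusted p = 0.0541). Both were called lower, and CAD higher, without parental array 3.

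CA9 and, in several tumour cell types, CA12 are known to respond to hypoxia, so targets of HIF were listed. Of 14 tested genes, 3 were called higher and 0 lower, with a median change of 0.54. Over all tested probe sets, 5.75% were called higher and 4.27% lower. At an unadjusted limma p under 0.05, 8 of the 14 were higher and 0 lower, against 3887 and 3266 of all 26563 tested probe sets. NDRG1, a stress-responsive gene, gave 9.99, 9.33 and 38.5 times the array median on the resistant arrays and 4.13, 4.43 and 3.25 on the parental arrays (3.92-fold, 1.97 ± 0.45, limma adjusted p = 0.0251). Resistant array 3 was far above the other resistant arrays, and the fold was 2.48 without it. EGLN3, an oxygen-sensing prolyl hydroxylase, gave 3.59, 3.92 and 6.7 on the resistant arrays and 1.25, 1.39 and 2.1 on the parental arrays (2.96-fold, 1.56 ± 0.30, limma adjusted p = 0.0125). HK2, a hexokinase, gave 11.6, 8.98 and 13.4 on the resistant arrays and 4.22, 6.98 and 6.73 on the parental arrays (1.92-fold, 0.94 ± 0.23, limma adjusted p = 0.0336). Only 1 of the 2 tested HK2 probe sets was called. The calls of all 3 depended on single arrays, that of NDRG1 on parental arrays 1 and 2, that of EGLN3 on resistant array 3 and that of HK2 on each resistant array and on parental array 1. Without parental array 3 the list held 7 genes called higher and 1 lower, against 3586 and 3518 of all 26563 tested probe sets. ANKRD37, LDHA, P4HA1 and PGK1 were those called higher only then. The one called lower was VEGFA, an angiogenic factor named after its values were seen, with 42.6, 36.1 and 44.2 on the resistant arrays and 130, 121 and 29.9 on the parental arrays.

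**Figure D3:**
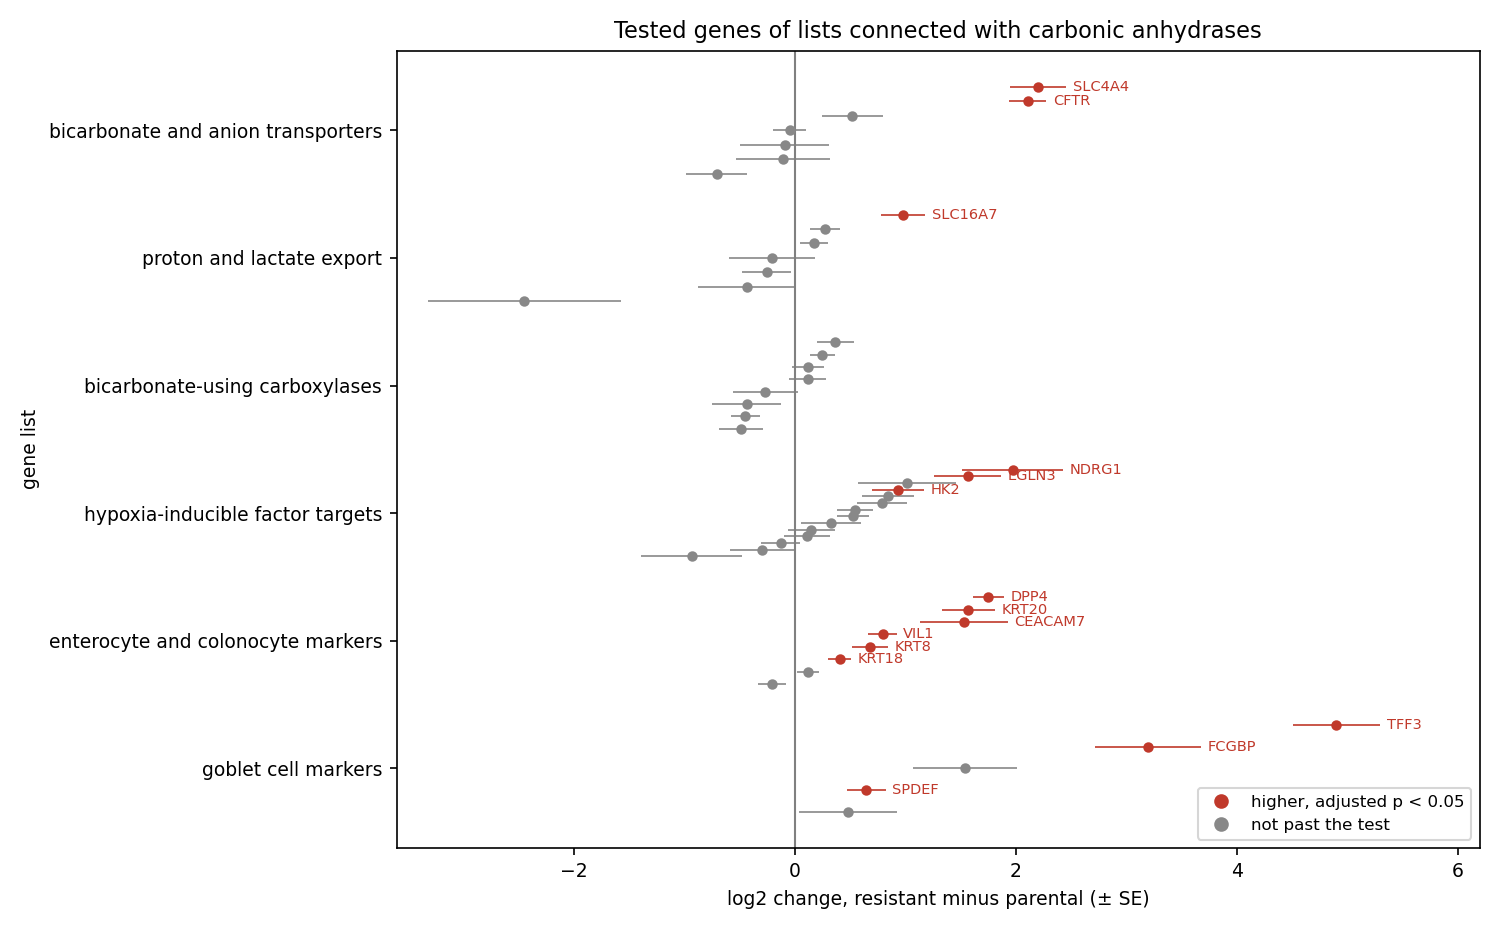
Change between resistant and parental cells, in log2 units with bars for the SE, of each tested gene in 6 lists connected with carbonic anhydrases or with the intestinal epithelium, each gene by its brightest probe set. Red points are called higher in resistant cells (limma adjusted p below 0.05) and grey points are not called, and TFF3 lies farthest to the right at 4.90.

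Several carbonic anhydrases mark cell types of the gut, so markers of these types were counted. Of 8 tested enterocyte and colonocyte markers, 6 were called higher and 0 lower in resistant cells, with a median change of 0.74. Without parental array 3 the list also held 1 gene called lower, the adhesion molecule CDH1, at -0.32. Of the 19 markers with a probe set, 11 were too dim to be tested, among them CDX2, SI, ALPI and FABP1. The tested ones include KRT8, KRT18, EPCAM and CDH1, named above as epithelial markers, and KRT8 and KRT18 are among the 6 called. The count is therefore not one of enterocyte genes alone. DPP4, a brush border peptidase, was 3.37-fold higher (limma adjusted p = 9.76e-05), KRT20, a keratin of differentiated epithelium, 2.97-fold (limma adjusted p = 0.0037), and CEACAM7, a membrane protein of colonocytes, 2.89-fold (limma adjusted p = 0.0392). VIL1, which bundles actin in microvilli, was 1.74-fold higher (limma adjusted p = 0.00504), with 2 of its 4 tested probe sets called. The calls of KRT8 and KRT18 were lost when any single array other than parental array 3 was left out, and that of CEACAM7 without any of 4 single arrays. The summed signal of the list was 2230 to 2310 on the resistant arrays and 1470 to 1870 on the parental arrays, with 7 of 19 markers under the array median on every array. Most of this sum came from the keratins KRT18, KRT8 and KRT20, EPCAM and CDH1.

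Of 5 tested goblet cell markers, 3 were called higher and 0 lower, with a median change of 1.54. TFF3, a secreted trefoil peptide, gave 33.9, 36.2 and 51.1 on the resistant arrays and 2.26, 0.633 and 1.64 on the parental arrays (29.9-fold, limma adjusted p = 9.99e-05). FCGBP, a mucus protein, gave 2.9, 4.41 and 4.33 on the resistant arrays and 0.595, 0.594 and 0.204 on the parental arrays (9.17-fold, limma adjusted p = 0.00359). It reached the filter only through the resistant arrays and its fold was 4.57 with the offset of 0.5, though it was also called with no filter. SPDEF, a transcription factor of secretory cells, was 1.57-fold higher (limma adjusted p = 0.0436), with only 1 of its 4 tested probe sets called. The call of SPDEF was lost without any single array other than parental array 2 or 3. MUC2, the main gel-forming mucin of the colon, gave 1.54, 2.07 and 2.38 on the resistant arrays and 0.739, 1.09 and 0.381 on parental arrays. It was not called, and it too reached the filter only through the resistant arrays. The summed signal of the 7 goblet cell markers was 51.5 to 71.6 on the resistant arrays and 10.6 to 11.8 on the parental arrays. Most of the resistant sum came from TFF3 alone and most of the parental sum from SPDEF. In these lists, 3 of 5 goblet cell and 6 of 8 enterocyte and colonocyte markers tested were called higher, against 5.75% of all tested probe sets. FCGBP and MUC2 entered the goblet cell count only through the resistant arrays, where they were high, so nothing is read from that count. The other tested markers were not called. CA12 and CA2 were also higher in resistant cells, and the part of these cell types in their values was not tested. Red cell markers, listed because red cells hold CA1 and CA2, summed to 2.55 to 3.92 on the resistant arrays and 3 to 4.5 on the parental arrays, with 0 of 2 tested genes called. Of 3 tested fibroblast, endothelial and leukocyte markers, 1 was called. This was LUM, a matrix proteoglycan, with 3.27, 2.92 and 1.5 on the resistant arrays and 0.198, 0.352 and 0.265 on the parental arrays (9.2-fold, limma adjusted p = 0.00717). LUM too reached the filter only through the resistant arrays, with 3.85-fold under the offset of 0.5, and was also called with no filter. Its call was lost without resistant array 1 or 2, and the summed signal of this list was 10.5 to 11.4 on the resistant arrays and 8.82 to 10.2 on the parental arrays.

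Over the 6 lists of transporters, proton and lactate exporters, carboxylases, HIF targets, enterocyte and goblet cell markers together, 49 genes were tested, 15 were called higher and 0 lower (21 and 4 at an unadjusted p under 0.05), against 5.75% and 4.27% of all tested probe sets. Leaving out parental array 3 gave 20 higher and 4 lower, against 3586 and 3518 of all 26563 tested probe sets in that fit. The lists were chosen with earlier results of these arrays known. FCGBP and MUC2 entered these counts only through the resistant arrays, and HVCN1 only through the parental arrays.

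The genes beside each member were read in chromosome order, taking the 3 nearest tested genes on each side. CA13, CA1, CA3 and CA2 lie in this order in a cluster on chromosome 8, and within it CA13 was lower and CA2 higher in resistant cells. The nearest tested genes outside the cluster were RBIS and E2F5 on one side and ATP6V0D2 and WWP1 on the other. Their changes were 0.19, -0.40, -0.39 and -0.12 in this order, and none of them was called. On the same chromosome TOX, a transcription factor gene beside CA8, was 8.7-fold higher in resistant cells (limma adjusted p = 0.00744), a call lost without resistant array 1. TOX averaged 3.61 times the array median on the resistant arrays and 0.457 on the parental arrays, so it reached the filter only through the resistant arrays, with 4.26-fold under the offset of 0.5, and was also called with no filter. None of the 6 neighbours of CA12 was called, with changes between -0.35 and 0.24. Without parental array 3, RPS27L, USP3 and HERC1 beside CA12 were called lower, as was ZRSR2 beside CA5B, and NSMAF beside CA8 was called higher.

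**Figure D4:**
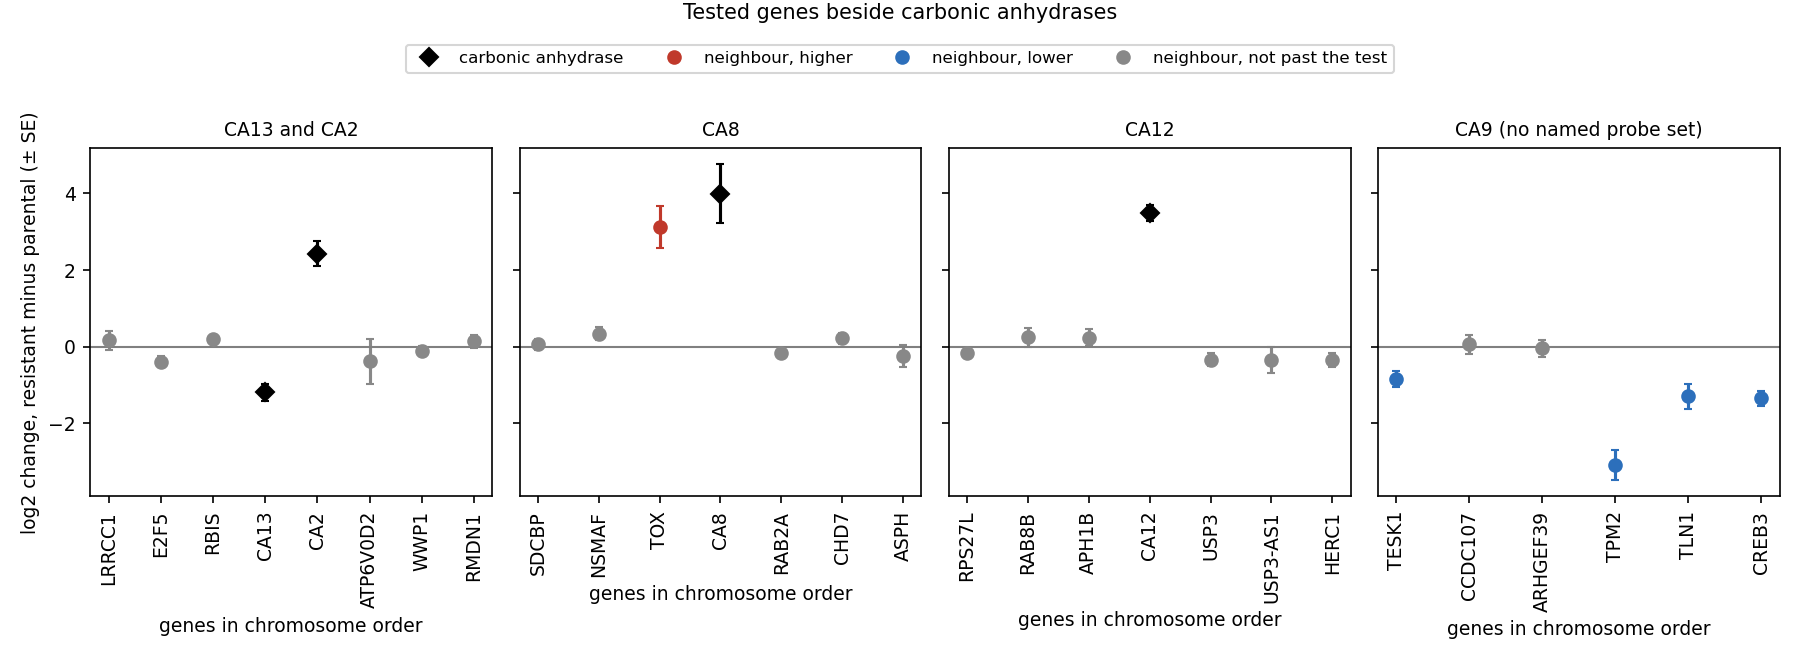
Change between resistant and parental cells, in log2 units with bars for the SE, of tested genes in chromosome order beside CA13 and CA2, CA8, CA12 and CA9, with carbonic anhydrases as black diamonds (brightest tested probe set) and neighbours in red where called higher, blue where called lower and grey where not called. Distances between genes are not to scale, CA1 and CA3 lie between CA13 and CA2 and were not tested, and CA9, which has no value, lies between ARHGEF39 and TPM2.

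Of the 6 neighbours of CA9, 4 were called lower. TPM2, a tropomyosin, was 8.59-fold lower (limma adjusted p = 0.00155). It averaged 0.832 times the array median on the resistant arrays and 6.7 on the parental arrays, so it reached the filter only through the parental arrays, with 5.45-fold under the offset of 0.5, and was also called with no filter. CREB3, a transcription factor of the endoplasmic reticulum, was 2.55-fold lower (limma adjusted p = 0.00323), TLN1, which links integrins to actin, 2.47-fold lower (limma adjusted p = 0.0336), and TESK1, a kinase, 1.8-fold lower (limma adjusted p = 0.0384). The calls of TLN1 and TESK1 were lost without any single array other than parental array 3. Beside CA5B on the X chromosome, AP1S2, an adaptor subunit, was 3.49-fold lower (limma adjusted p = 0.000373), PIR 2.88-fold higher (limma adjusted p = 0.0236) and CTPS2, a CTP synthase, 2.87-fold higher (limma adjusted p = 0.0423). The call of PIR was lost without any single resistant array or parental array 1, and that of CTPS2 without any single array other than parental array 3. FUT1, a fucosyltransferase beside CA11, was 2.49-fold lower (limma adjusted p = 0.0247), a call lost without any single array other than parental array 3. Over all 42 neighbouring genes outside the family, 3 were called higher and 6 lower, against 5.75% and 4.27% of all tested probe sets. TOX and TPM2 entered this count only through the group where they were high. Leaving out parental array 3 gave 4 higher and 10 lower, against 3586 and 3518 of all 26563 tested probe sets in that fit.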

How the data were processed

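RNA of MTX-resistant and parental Caco2 cells was measured on 3 arrays each. The authors deposited an intensity on a linear scale for each probe set on each array. The submitters' processing notes name MAS5. For its version and scaling target, nothing was given in the sources used here. Ratios to sensitive cells, described in the methods, were not used. Of 54675 probe sets, 62 controls were left out. Each intensity was divided by its array median and log2 transformed, with the 10 exact zeros set to 0.05 signal units. Genes were named through the platform annotation and RefSeq (GRCh38.p14), and a gene with several probe sets was represented by the brightest, except in the family.

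Groups and replicate numbers came from the sample titles. All tested probe sets were fitted with limma 3.58.1 in R 4.3.3 on all 6 arrays (lmFit, then eBayes with a trend on intensity), two-sided, and p-values were adjusted by Benjamini-Hochberg. The script was tested on simulated data. Nothing shows that the samples of a group were separate cultures, so the spread behind the p-values is that between these samples and may be technical only. With 3 arrays a group, the smallest p of an exact permutation test is 0.1, and none was run. Members, lists and alternatives were chosen with earlier results of these data known. The text names all members, up to 4 called genes of each list with the largest changes (the 2 largest where fewer than 2 were called), called neighbours and, for the CA8 and CA12 probe sets, the 3 most similar profiles. KRT8, KRT18, CAD, SLC26A3, MUC2, CDH1, EPCAM, RPS27L, USP3, HERC1, ZRSR2, NSMAF, ANKRD37, LDHA, P4HA1, PGK1 and VEGFA were named after their values were seen. A planned comparison of protein sequences was not run. As alternatives, the arrays were quantile normalized or left without further scaling, the filter was dropped or set at 3 times the median, percentile 25 served as a floor, 0.5 was added to scaled signals, the trend was omitted, the replicate number entered as a block, single arrays were left out, the methods' t-test replaced limma, and the probe sets of a gene were averaged.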

Additional observations from a re-analysis of the deposited data

How the results depend on the processing

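The 10 tested probe sets of the family kept their direction under each alternative that gave them a value (the filter at 3 times the median left out CA8). The list medians near 0 turned under the filter at 3 times the median, to 0.52 for bicarbonate and anion transporters, 0.17 for proton and lactate export and 0.12 for carboxylases. Over all tested probe sets, 1528 were called higher and 1135 lower. These counts were 698 and 504 without the intensity trend, 198 and 121 with the methods' t-test after Benjamini-Hochberg adjustment (run on the same log2 values, without the error model and control strength filter of the study's array software), and 476 to 3586 and 393 to 3518 with single arrays left out. The highest of both ranges came from leaving out parental array 3. Of the family, 7 probe sets were called higher and 2 lower. With the methods' t-test these were 4 and 0, without the intensity trend 7 and 1, and with single arrays left out 6 to 8 and 1 to 2. The t-test lost CA2, CA8, the CA12 probe set 204508_s_at and both CA13 probe sets. Of the listed genes, 15 were called higher and 0 lower. This became 9 higher without the intensity trend and 5 higher with the methods' t-test, not all of those 5 being among the 15. The filter at 3 times the median gave 1 lower, and single arrays left out gave 8 to 20 higher and 0 to 4 lower. The methods' t-test also lost LUM, all 9 called neighbours and each called gene of the lists other than CFTR, SLC4A4, DPP4 and VIL1, and the fit without the trend lost HK2, NDRG1, CEACAM7, KRT8, KRT18, SPDEF, PIR, CTPS2, TESK1 and FUT1. HK2, KRT18 and SPDEF were lost with no further scaling, KRT8, KRT18 and CTPS2 with quantile normalization, and CEACAM7, KRT8, KRT18, SPDEF, CTPS2, TESK1 and TLN1 with no filter. Why the counts changed was not tested. With the deposited values not scaled further, the median change of all tested probe sets was -0.0785. Folds of CA8, 204508_s_at, FCGBP, LUM and TOX are limited by parental signals near or under the array median, and those of TPM2 and HVCN1 by such resistant signals.

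Samples with the same replicate number did not deviate together (correlations of deviations -0.0218 to -0.0165, against 0.00318 to 0.0137 for other pairs). These correlations cannot show whether such samples were prepared or hybridised together. With the replicate number as a block, 1265 probe sets were called higher and 828 lower, 7 and 2 of the family, and 14 and 0 of the listed genes. CEACAM7, KRT18, SPDEF, TESK1 and TLN1 were not called in that fit. Not all of its 14 listed genes were called in the main fit.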
